A study of Mus musculus with 32 samples.

Results

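The nuclear factor I family consists of 4 transcription factor genes in the mouse, *Nfia*, *Nfib*, *Nfic* and *Nfix*, and all 4 were found by symbol among the 29511 genes with counts. They were followed across 32 RNA-seq samples, and were chosen by the measured change of *Nfic* and *Nfix* in lungs of *Clic4* knockout mice. It was also known that the response of *Nfix* to the tumor differed between KO and WT lungs, a value that the WT lungs enter. Lung levels of *Nfic* and *Nfix*, WT lungs included, are therefore given below as a description without a test. Tests were kept for all 4 genes in primary tumors, whose samples did not serve to choose them, for *Nfia* and *Nfib* in WT lungs and in tumor against lung, and for transcript lengths.

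All mice were virgin FVB/N females, put to use at 6 to 8 weeks of age, and came from crosses of heterozygotes. They were either wildtype (WT) or carried the constitutive *Clic4* knockout (KO), which affects the gene in every tissue. The age of each group when its tissue was taken is not given. The 6DT1 cells are a mammary tumor line of the same strain that was injected into the fourth mammary fat pad and carries *Clic4* in both host genotypes. Lungs were taken 14 days after injection from 6 WT and 6 KO mice, and tumors at the same time from 6 WT and 6 KO hosts. Control lungs came from 4 WT and 4 KO mice at baseline, without a tumor. Lungs and tumors are whole tissue, so fewer cells of a type and less RNA per cell cannot be told apart. The study describes the animals of each genotype as independent. Whether a 14-day lung and a tumor came from the same mouse is not given in the labels, which also name no sequencing batch.

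Nuclear factor I proteins bind DNA as dimers, at a palindrome made of TTGGC, a spacer of 5 bases and GCCAA, through a highly similar amino-terminal domain. Their carboxy-terminal parts differ more and carry activating or repressing functions. In the lung, *Nfib* is required for the maturation of the epithelium and mesenchyme before birth, *Nfia* is best known from glial development, *Nfic* from the growth of tooth roots and *Nfix* from muscle and brain development.

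*Nfia* (ENSMUSG00000028565) lies on the plus strand of chromosome 4 (chr4:97772734-98118874, GRCm38, GENCODE M21) and has 8 annotated transcripts. *Nfib* (ENSMUSG00000008575) lies on the minus strand of the same chromosome (chr4:82290173-82705750) and has 12 transcripts. Both share chromosome 4 with *Clic4*, at 37.4 and 52.9 Mb from it. *Nfic* (ENSMUSG00000055053) lies on the minus strand of chromosome 10 (chr10:81396186-81455635) with 7 transcripts, and *Nfix* (ENSMUSG00000001911) on the minus strand of chromosome 8 (chr8:84699876-84800344) with 8.

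The genes form pairs by base composition. The longest coding transcript was 42.7% GC in *Nfia* and 43.3% in *Nfib*, but 57.4% in *Nfic* and 57.1% in *Nfix*. Among the 15950 lung genes tested that have a GC value (median 49.3%), *Nfia* and *Nfib* stood at percentiles 16.8 and 19.3, and *Nfic* and *Nfix* at 89.3 and 88.0. The coding bases alone were 52.7% GC in *Nfia*, 50.1% in *Nfib*, 62.9% in *Nfic* and 58.8% in *Nfix*. The stretch after the stop codon was 39.6%, 39.2%, 55.8% and 56.5% GC in the same order. To show how alike the genes are in the part that encodes the amino-terminal region, and how the pairs differ in composition, the 90 coding bases with the most positions shared by all 4 are given. They come from an alignment of the coding sequences of GENCODE M21, and capitals mark the 22 of 90 positions at which the genes are not all identical.
Nfia: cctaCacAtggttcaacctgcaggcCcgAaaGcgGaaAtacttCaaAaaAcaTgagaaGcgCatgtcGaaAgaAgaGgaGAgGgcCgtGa
Nfib: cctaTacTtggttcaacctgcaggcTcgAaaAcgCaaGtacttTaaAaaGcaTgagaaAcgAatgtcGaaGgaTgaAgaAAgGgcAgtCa
Nfic: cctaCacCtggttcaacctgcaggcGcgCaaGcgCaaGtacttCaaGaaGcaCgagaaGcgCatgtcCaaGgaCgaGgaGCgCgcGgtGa
Nfix: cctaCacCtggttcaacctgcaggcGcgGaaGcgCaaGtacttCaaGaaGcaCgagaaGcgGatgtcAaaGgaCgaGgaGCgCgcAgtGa

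In this window *Nfic* was 60.0% and *Nfix* 57.8% GC, against 50.0% in *Nfia* and 43.3% in *Nfib*. Over the whole coding sequence, identity between 2 members ran from 64.2% (*Nfib* and *Nfix*) to 70.0% (*Nfia* and *Nfix*). The longest run of bases shared by the longest coding transcripts was 32, between *Nfic* and *Nfix*, and no other pair shared more than 21.

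The samples held 4446323 to 8318711 counts, with a median of 5384934, and each member had between 180 and 3183 counts in every sample, so that all 4 passed the filter on low counts. The knocked-out gene checked the labels. *Clic4* read 154.6 to 229.7 FPKM (fragments per kilobase of transcript, scaled to library size) in WT lungs and 55.4 to 74.6 FPKM in KO lungs, with no overlap. The paper assigns the reads left in KO lungs to parts of the gene other than the excised stretch around exon 2. It detected no CLIC4 protein in fibroblasts of KO lungs. In tumors, whose injected cells carry the gene, *Clic4* read 74.65 to 82.23 FPKM in WT and 58.9 to 69.0 FPKM in KO hosts. The 10 alveolar type 2 cell genes summed to 12300 to 18100 FPKM in lungs and 264 to 873 FPKM in tumors, where the lung factor *Nkx2-1* stayed under 0.05 FPKM in every sample.

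In lungs the family was led by *Nfib*. On the FPKM scale, which corrects for transcript length and so allows genes to be compared, mean *Nfib* levels were 59.7 ± 3.61 (SD, n = 4) in controls and 61.4 ± 2.52 (n = 6) at 14 days in WT mice, and 61.9 ± 3.49 (n = 4) and 62.3 ± 2.06 (n = 6) in KO mice. The coefficient of variation within these groups was 3.3 to 6.05%. *Nfib* thus made up 45.3 to 50.5% of the summed FPKM of the 4 genes as group means, and the sum itself was 123 to 135 FPKM. *Nfia* followed with group means of 25.2 to 30.6 FPKM, then *Nfix* with 20.3 to 27.5 and *Nfic* with 11.96 to 19.14 FPKM. This order of the means was the same in the 4 lung groups. The neighbours *Nfia* and *Nfix* overlapped over the samples in 3 of them, the exception being control KO lungs, where the lowest *Nfia* value was 26.9 and the highest *Nfix* value 23.9 FPKM. *Nfix* and *Nfic* overlapped in the 14-day lungs of both genotypes and not in control lungs, and the lowest *Nfib* value of a lung group was above its highest *Nfia* value.

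**Figure D1:**
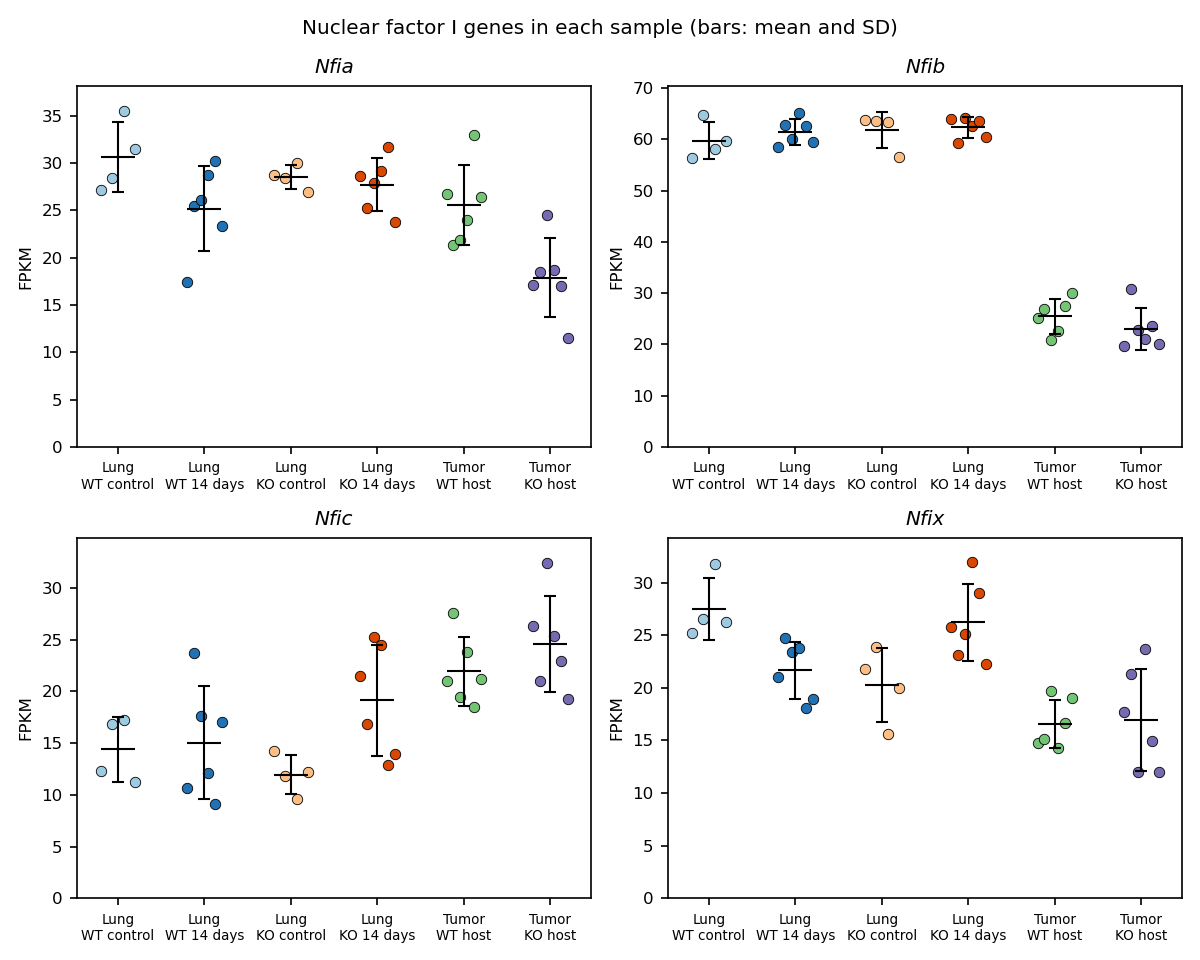
FPKM of the 4 nuclear factor I genes in each of the 32 samples (points, 1 per sample), by group, with the mean (wide bar) and SD (error bars). *Nfib* lies near 60 FPKM in every lung group and at 19.7 to 30.8 FPKM in the tumors, and within the lung groups its coefficient of variation was 3.3 to 6.05%, beside 4.46 to 17.9% for *Nfia*, 10.7 to 17.3% for *Nfix* and up to 36.2% for *Nfic*.

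WT lungs ask what a distant tumor does to the lung when the host has *Clic4*. In these lungs *Nfix* was lower with a tumor on both scales. The mean of *Nfia* was lower as FPKM, but the groups overlapped (exact permutation p = 0.0762), so a change of *Nfia* was not established. On the counts *Nfia* was close to its control level, and *Nfib* was so on both scales. *Nfix* read 25.2, 26.6, 31.8 and 26.3 FPKM in the 4 control lungs, and from 18.1 to 24.8 FPKM with a median of 22.2 in the 6 lungs at 14 days. Every 14-day lung lay below every control lung, and 2.43% of genes had FPKM values that did not overlap between these groups. On the counts, as CPM (counts scaled to library size with TMM factors), 2 of 6 lungs at 14 days overlapped with the controls, and for none of the 4 members did the groups separate, as they did for 2.98% of genes. The log2 fold change of *Nfix* on the counts was -0.32 ± 0.09 (SE), or 0.799-fold, and that of *Nfic* -0.07 ± 0.14. Leaving out 1 lung at a time moved *Nfix* between -0.40 and -0.26.

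*Nfia* averaged 30.6 FPKM in control and 25.2 FPKM in 14-day WT lungs, and 4 of 6 lungs at 14 days lay below all controls. The exact permutation test of log2(FPKM + 1), two-sided, gave a difference of -0.28 with p = 0.0762 for *Nfia* and of 0.04 with p = 0.371 for *Nfib*. On the counts the log2 fold changes were -0.02 ± 0.05 for *Nfia* and 0.01 ± 0.05 for *Nfib*, with FDR of 0.934 and 0.973 in edgeR. The 95% interval ran from -0.12 to 0.09 for *Nfia* and from -0.09 to 0.10 for *Nfib*. Neither passed FDR 0.25 and 1.5-fold, the study's limits for lungs, in edgeR or DESeq2, as 0.574% of 16029 genes did in edgeR, and 0 of these 2 genes had an unadjusted p under 0.05.

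Of the 15 gene lists set beside the family, 3 held genes that passed the limits in the same WT lungs. Neutrophil genes rose in 3 of 6 cases, among them *Cxcr2*, a chemokine receptor (2.54-fold, FDR 0.101), and *S100a8* and *S100a9*, which encode a calcium-binding pair of proteins (4.05-fold at FDR 0.164 and 4.15-fold at FDR 0.169). The summed FPKM of the 6 genes was 71.2 to 154 in control and 162 to 774 in 14-day lungs. *Col1a1*, a fibrillar collagen, fell to 0.602-fold (FDR 0.161) and was called alone among 8 fibroblast genes, whose sum was 687 to 896 FPKM in control and 584 to 758 FPKM at 14 days. *Marco*, a scavenger receptor of alveolar macrophages, fell to 0.375-fold (FDR 0.0935), as 1 of 7 macrophage genes. Of 23 lung transcription factors tested, 0 passed the limits, and the same held for the genes of the alveolar type 2, alveolar type 1, airway, endothelial, smooth muscle, T cell, B cell, cardiac muscle, adipocyte, mammary and tumor epithelial and skeletal muscle lists. Some of these lists lay mostly to 1 side of the median of 0.00 over all genes. The median log2 fold change was -0.61 for B cell, -0.25 for T cell and -0.15 for alveolar type 2 genes, with 0 of 6, 0 of 6 and 0 of 10 above 0, and -0.28 for fibroblast genes, with 1 of 8 above 0. On the other side, it was 1.43 for neutrophil genes, with 6 of 6 above 0, 0.43 for adipocyte genes, with 5 of 5, and 0.15 for cardiac muscle genes, with 5 of 6. The medians of the other 8 lists lay between -0.12 and 0.14. The part of these cell type genes in the *Nfix* difference was not tested.

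In KO lungs *Nfic* and *Nfix* were higher in tumor-bearing mice, the difference for which they were chosen. *Nfix* read 46.7, 48.6, 35.4 and 43.6 CPM in the 4 control KO lungs and 57.3 to 68.5 CPM, median 61.9, in the 6 KO lungs at 14 days. *Nfic* read 54.6, 43.1, 38.3 and 46.0 CPM in the same controls and 58.5 to 82.6 CPM, median 71.5, at 14 days. For both genes all 6 lungs with a tumor were above all 4 controls, which 1.35% of the genes tested showed in that direction. The log2 fold change was 0.53 ± 0.09 (1.45-fold) for *Nfix* and 0.65 ± 0.14 (1.57-fold) for *Nfic*. The other members were level, at -0.05 ± 0.05 for *Nfia* and -0.01 ± 0.05 for *Nfib*.

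On the FPKM scale the same groups separated less. *Nfix* averaged 20.3 FPKM in control and 26.2 FPKM in 14-day KO lungs, and *Nfic* 11.96 and 19.14 FPKM, but for each gene 4 of 6 lungs at 14 days were above all controls. The 14-day KO lungs spread widely for *Nfic*, at 21.5, 25.2 and 24.5 FPKM in 3 of them and at 16.8, 12.9 and 13.9 FPKM in the others. On the CPM scale the values of these 6 lungs lay closer together, with a coefficient of variation of 13.3% against 28.0% for FPKM.

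Between genotypes *Nfix* and *Nfic* differed in opposite directions in control and in 14-day lungs, which was not tested. In control lungs *Nfix* was lower in KO, at 43.6 ± 5.81 CPM (SD, n = 4) against 61.2 ± 7.13 CPM (n = 4) in WT, without overlap, which 3.78% of genes showed in that direction. In 14-day lungs it was higher in KO, at 62.8 ± 3.95 against 48.5 ± 4.4 CPM (n = 6 each), again without overlap, which 0.256% of genes showed. On the FPKM scale the 14-day lungs did overlap, at 26.2 FPKM in KO and 21.7 FPKM in WT, with 4 of 6 KO lungs above all WT lungs, while control lungs did not (20.3 and 27.5 FPKM), as for 6.26% of genes on that scale. As log2 fold changes these were -0.49 ± 0.10 in control and 0.37 ± 0.08 in 14-day lungs. *Nfic* gave -0.40 ± 0.15 and 0.32 ± 0.12 in the same comparisons, with overlapping groups. These comparisons use the KO lungs that chose the genes, share groups with those above and are a description. For *Nfia* and *Nfib* the 4 values lay between -0.05 and 0.06.

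The difference between the KO and the WT response was 0.86 ± 0.13 on the log2 scale for *Nfix* and 0.72 ± 0.20 for *Nfic*, against -0.04 ± 0.07 for *Nfia* and -0.02 ± 0.07 for *Nfib*. Both the control and the 14-day lungs entered this value. The control WT lungs were as high (61.2 CPM) as the 14-day KO lungs (62.8 CPM), and the control KO lungs (43.6 CPM) lay near the 14-day WT lungs (48.5 CPM).

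**Figure D2:**
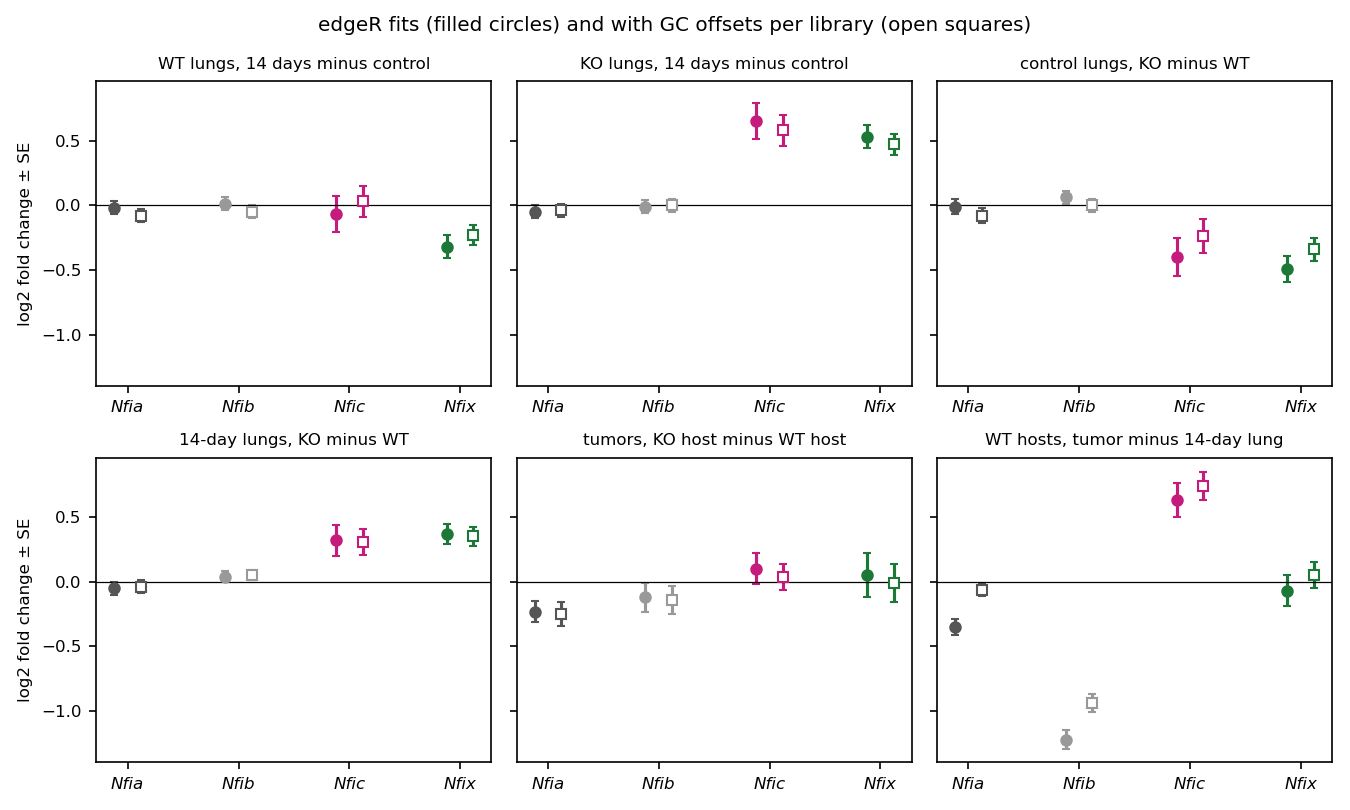
Log2 fold changes with SE of the 4 genes in 6 comparisons, from edgeR fits of the counts (filled circles) and from the same fits with an offset for GC content in each library (open squares). *Nfic* and *Nfix* move together in the 3 comparisons with KO lungs and apart from *Nfia* and *Nfib*, and in these comparisons the offsets shrink their values without turning them.

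Since *Nfic* and *Nfix* are both rich in GC, their changes were set beside those of other genes of like composition. The lung libraries differed in how strongly a gene's count followed its GC content. The slope of log2 CPM on GC, per 10 percentage points, averaged 0.087 in controls and -0.019 at 14 days in WT mice, and -0.054 and -0.003 in KO mice. Groups overlapped, since the slopes ran from -0.154 to 0.160 over the 20 lungs. The order of these means, from control WT over 14-day KO and 14-day WT to control KO, was close to the order of the *Nfix* means, in which the upper pair is exchanged.

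Across all 15950 lung genes with a GC value, GC content and log2 fold change had a Spearman correlation of 0.17 in the KO response, -0.34 in the WT response, -0.42 in control lungs (KO minus WT), 0.05 in 14-day lungs (KO minus WT) and 0.38 in the difference of the responses. These are descriptions across genes, which are not independent. *Nfic* and *Nfix* fall in the ninth decile of GC. The median log2 fold change of that decile was 0.05 in the KO response, so that *Nfic* lay 0.60 and *Nfix* 0.48 above it. In control lungs the decile median was -0.11, and *Nfic* lay 0.28 and *Nfix* 0.38 below it, as differences of -0.28 and -0.38. In the WT response the decile median was -0.07, close to which *Nfic* lay, while *Nfix* differed from it by -0.26. In 14-day lungs (KO minus WT) the decile median was 0.01, with *Nfic* 0.31 and *Nfix* 0.35 above it. The decile median had the sign of the *Nfic* and *Nfix* values in these 4 comparisons and was smaller in size. Beside *Nfic* in WT lungs the difference was only -0.01.

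**Figure D3:**
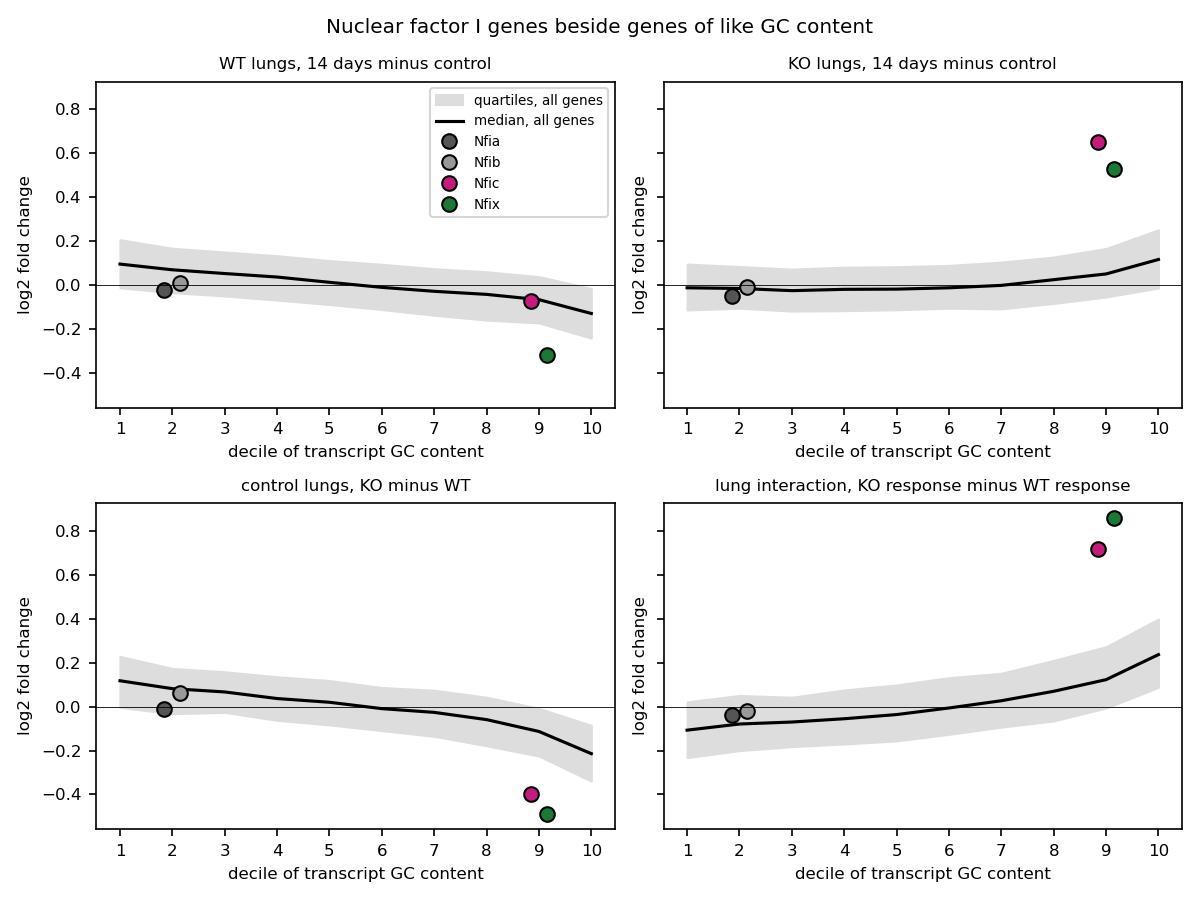
Log2 fold change of all tested lung genes by decile of transcript GC content (line, median; grey band, quartiles) with the 4 genes as points, in 4 lung contrasts. *Nfia* and *Nfib* lie inside the band in the second decile, and *Nfic* and *Nfix* lie outside the band of the ninth decile except *Nfic* in WT lungs.

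With an offset for the GC trend of each library, fitted by loess, the KO response was 0.58 ± 0.12 for *Nfic* and 0.47 ± 0.08 for *Nfix*. In control lungs the KO minus WT values became -0.24 ± 0.13 and -0.34 ± 0.09, and at 14 days 0.31 ± 0.10 and 0.35 ± 0.07. The difference of the responses became 0.55 ± 0.16 for *Nfic* and 0.69 ± 0.11 for *Nfix*. In WT lungs *Nfix* became -0.23 ± 0.08, and *Nfic* turned from -0.07 to 0.03 ± 0.12.

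The level of each member was then set against the GC slope of its library inside the groups, after the group means were removed from both. Over the 20 lungs, which include the KO lungs that chose the genes, Pearson r was 0.73 and Spearman rho 0.64 for *Nfic*, and r was 0.57 and rho 0.54 for *Nfix*. *Nfia* and *Nfib* gave r of -0.34 and -0.27. Leaving out the 2 libraries farthest from the median slope, both 14-day WT lungs, left r at 0.64 for *Nfic* and 0.55 for *Nfix*. Genes rich in GC follow this slope by the way it is computed, so the values were read beside the 1595 genes of the same GC decile. In the ninth decile the median r was 0.24, with quartiles of 0.01 and 0.45, and 3.01% of the genes had an r at least as high as *Nfic* and 14.4% one at least as high as *Nfix*. In the second decile the median was -0.16, and *Nfia* and *Nfib* lay between its quartiles of -0.35 and 0.01.

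Within the 10 WT lungs alone *Nfic* gave r of 0.81 and rho of 0.70, and r of 0.73 without the same 2 libraries. *Nfix* gave r of 0.73 and rho of 0.68 there, and r of 0.82 without the 2. *Nfia* and *Nfib* gave r of -0.44 (permutation p = 0.207) and -0.45 (permutation p = 0.211) and rho of -0.45 (permutation p = 0.225) and -0.39 (permutation p = 0.296), with 100000 permutations within groups and no adjustment for 2 genes. The median r of the ninth decile was 0.33 in these lungs, and 6.02% of its genes had an r at least as high as *Nfic* and 12.2% one at least as high as *Nfix*.

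**Figure D4:**
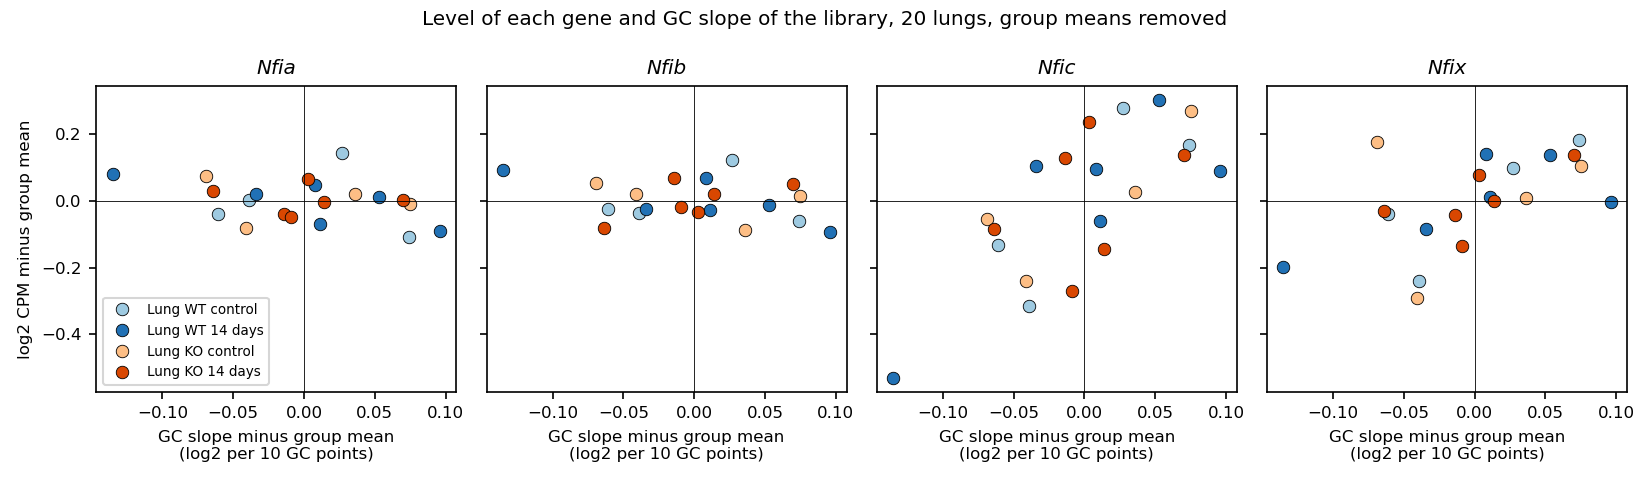
Log2 CPM of each gene against the GC slope of its library in the 20 lungs, both with the group mean removed, coloured by group. Points tend upwards from left to right for *Nfic* (r = 0.73) and *Nfix* (r = 0.57) and do not for *Nfia* (r = -0.34) and *Nfib* (r = -0.27). The lowest *Nfic* point, a 14-day WT lung, also has the lowest slope.

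Pairs of members were also compared from lung to lung within groups, after the group means were removed. *Nfic* and *Nfix* had a Pearson r of 0.76 and a Spearman rho of 0.69 over the 20 lungs, and *Nfia* and *Nfib* gave r of 0.53. The other 4 pairs gave r of -0.03 to 0.21. With the GC trend of each library removed these values were more alike, with r of 0.60 for *Nfic* and *Nfix*, 0.55 for *Nfia* and *Nfic*, 0.52 for *Nfia* and *Nfix*, 0.51 for *Nfia* and *Nfib*, 0.38 for *Nfib* and *Nfic* and 0.32 for *Nfib* and *Nfix*. For pairs with *Nfic* or *Nfix* these values include the KO lungs that chose the genes and are a description.

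Over all 20 lungs *Nfia* and *Nfib* gave r of 0.53 (permutation p = 0.0459) and rho of 0.40 (permutation p = 0.124). Without the 2 farthest libraries their r over these lungs was 0.31 (permutation p = 0.276). Within the 10 WT lungs alone, a subset added after the data were seen, *Nfia* and *Nfib* had the highest r of the 6 pairs. Their r was 0.91 (permutation p = 0.00035) and rho 0.94 (permutation p = 0.00082), and without the 2 farthest libraries r was 0.86 (permutation p = 0.0175). With the GC trend removed, r was 0.89 (permutation p = 0.0111) and rho 0.73 (permutation p = 0.0317), and r was 0.68 without the 2 farthest (permutation p = 0.07), no longer past 0.05 in the 8 lungs left. As a description, *Nfic* and *Nfix* had r of 0.84 and rho of 0.73, and r of 0.60 without the 2 farthest. With the GC trend removed these were 0.67, 0.60 and 0.41. The other 4 pairs gave r of -0.14 to 0.02 before and 0.29 to 0.57 after the trend was removed.

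The genes with the most similar pattern over the 20 lungs, among 10062 genes with at least 10 CPM on average, were found without regard to group, so the differences between groups that chose *Nfic* and *Nfix* enter the likeness, which is a description. For *Nfic* they were *Prr12* (r = 0.94), *Tril* (r = 0.90) and *Tbx2* (r = 0.90), the last a T-box factor of lung mesenchyme. For *Nfix* they were *Ltbp4*, which encodes a binding protein of latent TGF-beta (r = 0.91), *Prrc2a* (r = 0.90) and *Lrp10* (r = 0.87). All 6 were GC-rich, at percentiles 80.8 to 99.4 of the lung genes tested. With the GC trend removed, *Prr12* (r = 0.90) and *Ltbp4* (r = 0.84) still led for *Nfic* and *Nfix*. The genes most like *Nfia* were *Dnajc27* (r = 0.76), *Ino80d* (r = 0.71) and *Tspan12* (r = 0.70), and those most like *Nfib* were *Fam198b* (r = 0.76), *Lnpep* (r = 0.72) and *Cryzl1* (r = 0.71). These 6 stood at GC percentiles of 8.31 to 52.3.

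Because *Nfic* and *Nfix* both changed in KO lungs, the 250 bases before their transcription starts were searched for the family's own motif. RefSeq (GRCm38.p6) lists a start for 3 of the 4 members, not for *Nfib*, and 4 starts for *Nfix*, of which the outermost is shown. Both windows lie inside the longer GENCODE span of their gene, with 14 bases in an annotated exon for *Nfic* and 0 for *Nfix*. They are printed on the minus strand, as the genes are read, and capitals mark CG dinucleotides, since the transcripts of both genes are rich in GC.
Nfic, chr10:81427174-81427423: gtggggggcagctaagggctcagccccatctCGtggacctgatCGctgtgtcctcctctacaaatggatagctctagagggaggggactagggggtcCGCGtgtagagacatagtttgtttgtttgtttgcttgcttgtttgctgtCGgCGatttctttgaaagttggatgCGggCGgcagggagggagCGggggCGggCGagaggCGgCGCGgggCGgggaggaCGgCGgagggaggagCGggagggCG
Nfix, chr8:84780083-84780332: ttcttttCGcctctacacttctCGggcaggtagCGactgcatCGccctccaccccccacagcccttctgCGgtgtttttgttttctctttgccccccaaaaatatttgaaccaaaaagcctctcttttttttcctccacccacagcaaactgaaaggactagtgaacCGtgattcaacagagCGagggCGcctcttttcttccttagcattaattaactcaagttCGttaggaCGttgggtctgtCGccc

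The *Nfic* window is 63.2% GC with 19 CG dinucleotides, and the *Nfix* window 49.2% GC with 11, while the median over 32851 promoters is 52.4% GC and 6. Neither holds the half-site TTGGC on either strand (TTGGC or GCCAA), which 41.5% of all promoters hold in a window of this length. Of the other *Nfix* starts, 2 have 1 half-site each. The full palindrome, both half-sites with 5 bases between them, occurs in 0.0365% of promoters and in none of the 6 windows of the family. These are matches of letters and say nothing about binding.

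In primary tumors the question is whether the host's *Clic4* changes the tumor, whose injected cells have the gene in both groups. *Nfia* tended lower in KO hosts. It read 21.3 to 33.0 FPKM, median 25.2, in 6 tumors of WT hosts and 11.5 to 24.5 FPKM, median 17.8, in 6 tumors of KO hosts. In KO hosts 5 of 6 tumors lay below all tumors of WT hosts, on the FPKM as on the CPM scale. The exact permutation test of log2(FPKM + 1), two-sided, gave a difference of -0.51 with p = 0.00866, as 1 of 8 such tests that were computed, over 4 genes in WT lungs and tumors. On the counts the log2 fold change was -0.23 ± 0.08, or 0.854-fold, at an FDR of 0.188 in edgeR. This did not pass the tumor limits of FDR 0.05 and 2-fold.

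Of the 4 members 0 passed those limits in edgeR, against 1.06% of 13830 genes, and DESeq2 also called 0, with *Nfia* as the 1 member under 0.05 before adjustment. *Nfib* differed by -0.12 ± 0.11, *Nfic* by 0.10 ± 0.12 and *Nfix* by 0.05 ± 0.17 on the log2 scale, with FDR 0.657 to 0.928. The 95% interval of *Nfix* ran from -0.28 to 0.39. The T cell genes *Cd3g* and *Cd3d*, subunits of the T cell receptor complex, rose in the same tumors, 2.47-fold (FDR 0.0389) and 2.76-fold (FDR 0.0391), as 2 of 6 genes of their list. The list summed to 9.87 to 34.1 FPKM in WT and 21.7 to 37.9 FPKM in KO hosts. Of the other 14 lists 0 genes passed in tumors. The median log2 fold change of the T cell list was 1.14, with 6 of 6 genes above 0, beside -0.01 over all genes tested. It was 0.79 for adipocyte genes (6 of 6 above 0), 0.45 for lung transcription factors (10 of 13), 0.40 for neutrophil genes (5 of 5), 0.34 for mammary and tumor epithelial genes (5 of 7), 0.28 for macrophage genes (4 of 5) and 0.17 for fibroblast genes (7 of 8). Of the remaining 8 lists, the medians lay between -0.14 and 0.41. The part of these lists in the *Nfia* difference was not tested. Adipocyte genes summed to 109 to 208 FPKM in WT and 131 to 446 FPKM in KO hosts.

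Tumor and lung of WT hosts differed in how much of each member they held. *Nfib* read 20.9 to 30.0 FPKM, median 26.0, in tumors and 58.4 to 65.1 FPKM, median 61.3, in 14-day lungs, without overlap, as for 50.8% of genes. Its log2 fold change was -1.22 ± 0.07, or 0.428-fold (FDR = 4.63e-10 in edgeR), past the limits of FDR 0.05 and 2-fold, as were 21.4% of 15267 genes in that direction. With the GC offsets the value was -0.94 ± 0.07, under the 2-fold limit at FDR = 2.32e-09. The same offsets moved the median of all genes from -0.005 to 0.235, so relative to that median *Nfib* was -1.22 before and -1.17 after.

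The other members changed less between the tissues. *Nfic* was higher in tumors, at 67.6 to 105.6 CPM with a median of 89.0, against 38.0 to 68.5 CPM with a median of 59.4 in lungs, and 5 of 6 tumors were above all lungs. Its log2 fold change was 0.63 ± 0.13, or 1.54-fold, given as a description since the 14-day WT lungs enter it. *Nfia* was lower, at 73.2 to 86.7 against 92.2 to 102.2 CPM without overlap, which 29.2% of genes showed in that direction. Its value was -0.35 ± 0.06 (FDR = 3.52e-05 in edgeR), but -0.06 ± 0.05 (FDR = 0.331) with the GC offsets. Relative to the median of all genes *Nfia* was -0.34 without and -0.29 with them, and *Nfic* 0.63 and 0.50. At FDR 0.05 without the fold limit 75.1% of all genes passed, and both *Nfia* and *Nfib* did. *Nfix* gave -0.07 ± 0.12, with an interval from -0.30 to 0.16.

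On the FPKM scale the tumors had another balance of the family. *Nfib* made up 50.0 ± 3.07% of the summed FPKM in 14-day WT lungs and 28.3 ± 2.0% in tumors of WT hosts (n = 6 each). In the tumors *Nfic* took 24.6 ± 4.03% in place of 12.1 ± 3.68%, *Nfia* 28.5 ± 3.74% in place of 20.4 ± 3.08% and *Nfix* 18.6 ± 2.87% in place of 17.6 ± 1.7%. The larger share of *Nfia* was no rise of the gene, whose mean was 25.6 FPKM in these tumors and 25.2 FPKM in the lungs. As CPM it was 80.0% of the lung mean. The shares also depend on the transcript lengths behind FPKM, given below. The sum was 89.5 ± 5.91 FPKM in these tumors and 123 ± 10.1 FPKM in the lungs. In tumors of KO hosts it was 82.3 ± 11.1 FPKM, with *Nfic* at 29.9 ± 4.19% and *Nfia* at 21.5 ± 2.79%. The order of the means in tumors of WT hosts was *Nfia*, *Nfib*, *Nfic* and *Nfix*, and in tumors of KO hosts *Nfic*, *Nfib*, *Nfia* and *Nfix*. Within each tumor group neighbouring members overlapped over the samples. Other lung transcription factors differed more: of 23 tested, 18 were lower in tumors and *Sox9* was the 1 that was higher (42.8-fold, FDR = 7.27e-10). Among those that were lower were *Tbx4* and *Tbx5*, T-box factors of lung mesenchyme, at 0.00134-fold and 0.0118-fold, and *Hopx*, a marker of alveolar type 1 cells, at 0.00685-fold. The median log2 fold change of the 23 was -3.36, beside 0.00 over all genes. All 10 alveolar type 2, all 10 alveolar type 1, all 8 airway, all 8 endothelial, all 6 smooth muscle, all 6 B cell and all 5 cardiac muscle genes tested were lower in tumors, as were 5 of 6 neutrophil and 4 of 6 T cell genes. Fibroblast genes divided into 4 higher and 3 lower of 8, macrophage genes into 3 and 2 of 7, adipocyte genes into 4 and 1 of 5, mammary and tumor epithelial genes into 2 (*Krt8* and *Krt18*, keratins of simple epithelium) and 6 of 8, and skeletal muscle genes into 1 and 1 of 2. The part of this difference in cell types in the family's values was not tested.

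For *Nfia* and *Nfix* FPKM and counts told of different sizes in some comparisons. The transcript length behind FPKM, which depends on how reads were divided among a gene's transcripts, can be recovered from both tables. The effective length is the count divided by FPKM and by the total count. It was checked on 235 genes with 1 annotated transcript, where its median coefficient of variation over the 32 samples was 0.113%. For *Nfia*, *Nfic* and *Nfix* the coefficient was 16.6, 16.4 and 15.3%, larger than in 96.7, 96.5 and 95.1% of the 4875 genes with at least 100 counts in every sample. For *Nfib* it was 2.43%, under the median of 4.84% over these genes.

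In WT hosts *Nfia* had a mean length of 3055 ± 450 bases in tumors and 4071 ± 720 bases in 14-day lungs (n = 6 each, exact permutation test, two-sided, p = 0.013). *Nfix* had 2784 ± 379 and 2299 ± 130 bases (exact permutation p = 0.013), with 5 of 6 tumors above all lungs. These are 2 of 12 tests of length, chosen after the data were seen, and the others gave exact permutation p of 0.0844 to 0.942. Accordingly *Nfia* in tumors was 101% of the lung mean as FPKM and 80.0% as CPM, and *Nfix* 76.7% and 97.2%. In KO hosts, where lengths of the tissues were not tested, *Nfia* was not shorter in tumors. Its mean length there was 3667 ± 648 bases in tumors and 3493 ± 321 bases in 14-day lungs (n = 6 each). *Nfix* had 2811 ± 531 and 2451 ± 234 bases in the same KO groups. In WT lungs at 14 days *Nfia* was 82.3% of the control mean as FPKM but 98.1% as CPM, with lengths of 4071 ± 720 against 3331 ± 539 bases (exact permutation p = 0.105). In tumors *Nfia* of KO hosts was 70.0% of WT hosts as FPKM and 85.3% as CPM, with lengths of 3667 ± 648 against 3055 ± 450 bases (exact permutation p = 0.0844). The annotated coding transcripts of *Nfia* run from 821 to 9526 bases and those of *Nfix* from 1403 to 5476, and which of them were read was not measured here.

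**Figure D5:**
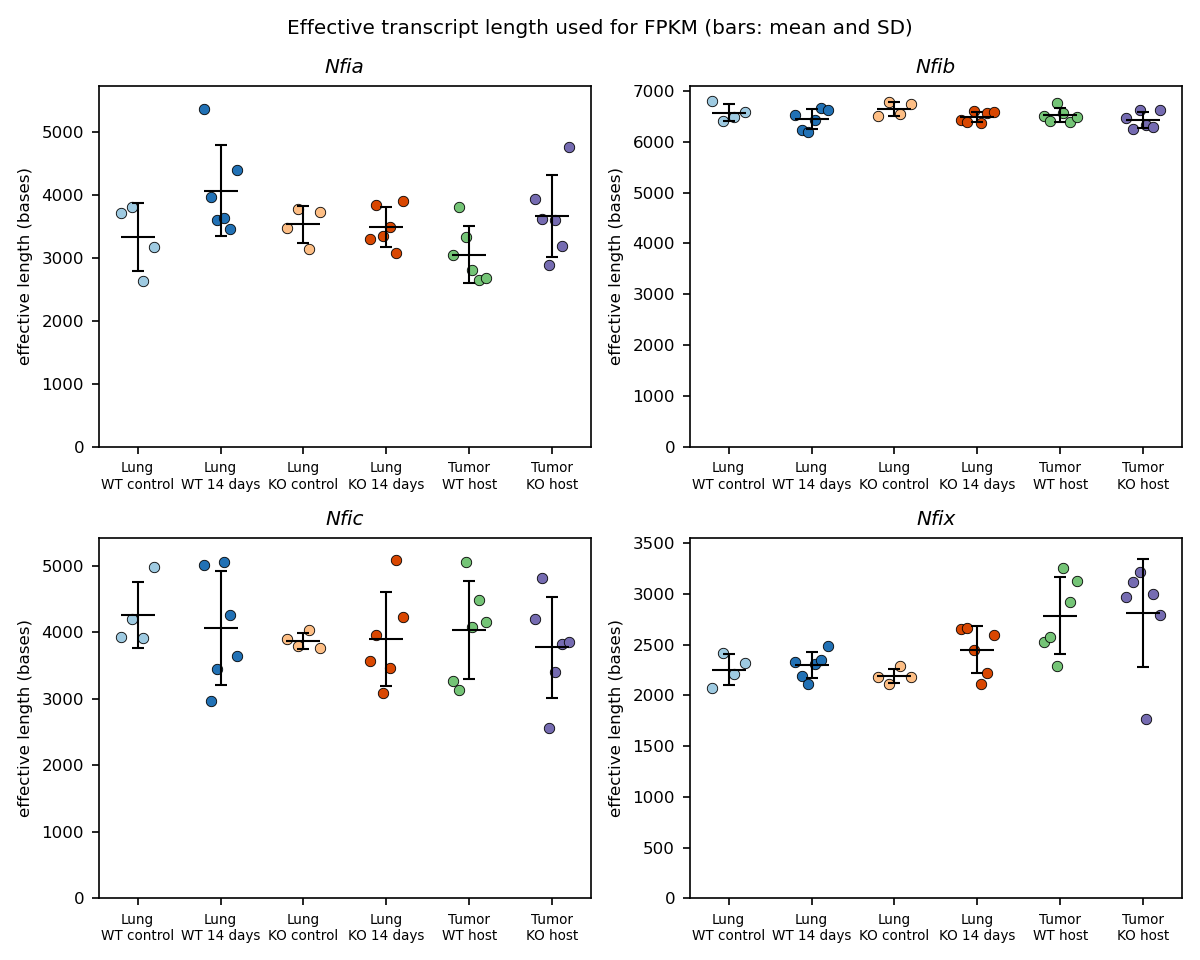
Effective transcript length of the 4 genes in each of the 32 samples, recovered from counts and FPKM, with mean and SD by group. *Nfib* stays within 6194 to 6793 bases, while *Nfia*, *Nfic* and *Nfix* vary from sample to sample. On average *Nfia* is shorter and *Nfix* longer in tumors than in 14-day lungs of WT hosts. In KO hosts mean *Nfia* length is 3667 bases in tumors and 3493 bases in 14-day lungs.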

How the data were processed

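RNA from snap-frozen lungs and tumors was sequenced by the study as paired-end, stranded mRNA libraries. Per the study's methods, the authors aligned reads with STAR to GRCm38 and quantified genes with RSEM. They deposited counts per gene, RSEM estimates written as whole numbers, and FPKM values, scaled by the authors to transcript length and library size. All 32 sample columns were mapped by name, with 0 left unmapped.

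Counts were fitted here with edgeR 4.0.16 (R 4.3.3), TMM normalization, filterByExpr and quasi-likelihood tests, 1 mean per group. The 20 lungs shared a fit, and the tumors and the tumor and lung comparison had their own. FDR values are Benjamini-Hochberg adjusted over all genes tested, with the study's limits of FDR 0.25 and 1.5-fold for lungs and FDR 0.05 and 2-fold otherwise. The authors tested with DESeq2, which was an alternative here (1.42.0). FPKM was compared as log2(FPKM + 1), with a pseudocount of 1, by exact permutation tests, since FPKM is no count. Differences on that scale understate changes of low genes. GC content came from the longest coding transcript of GENCODE M21, and GC offsets from a loess curve (span 0.5) per library. Coding sequences were aligned with MAFFT 7.526. The fitting steps were first tested on simulated data with known answers.

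Named genes are the 4 members, *Clic4*, from each of 15 fixed lists up to 3 called genes per direction, those of lowest p, in WT lungs, tumors and tumor against lung, and the 3 genes most similar to each member. *Nkx2-1* was named after its values were seen. The members and lists were chosen with earlier results of these data known, among them the response of *Nfix* in KO against WT lungs, so the tests first set for *Nfic* and *Nfix* in WT lungs are not reported. For that reason p-values of members outside the fits over all genes are given unadjusted, with the number of tests. Relations between members, also within WT lungs alone, the GC slope relation over all genes of a GC decile, similar genes without the GC trend and effective lengths were added after the data were seen. Alternatives were other normalization, filters, limits, GC offsets, a replicate block, only the compared groups, other FPKM scalings and each sample left out in turn. With 180 to 3183 counts of a member per sample, counting error alone was 2.01 to 6.48% of the group mean count.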

Additional observations from a re-analysis of the deposited data

Results flagged for a closer look

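Of 78 groups of 4 to 6 values of the members that were checked for a sample far from the others, 4 held one, and chance gives about 1 in 20. *Nfib* read 56.63 FPKM in control KO lung replicate 4, while the nearest of the other 3 read 63.32 FPKM. In tumor replicate 2 of the KO hosts *Nfib* read 30.78 FPKM with the nearest tumor at 23.56 FPKM, and on the count scale 208.1 CPM with the nearest at 156.6 CPM. The effective length of *Nfix* was 1767 bases in tumor replicate 4 of the KO hosts, and the nearest tumor had 2792 bases.

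The response of *Nfix* to the tumor also differed between genotypes. All 6 KO lungs at 14 days lay above the mean of the KO controls and all 6 WT lungs below the mean of the WT controls, with a difference of 0.86 between the responses on the log2 scale. On the CPM scale 0.586% of 16029 genes showed this pattern in that direction. The difference was not tested, because the lungs behind it served to choose *Nfix*.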

How the results depend on the processing

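In WT lungs, tumors and tumor against lung, 212 of 236 values of single members from other fits kept their direction and their side of the limits. The cause of the changes below was not tested. When single samples were left out, log2 fold changes in WT lungs ran from -0.05 to 0.03 for *Nfia*, from -0.02 to 0.05 for *Nfib*, from -0.17 to 0.03 for *Nfic* and from -0.40 to -0.26 for *Nfix*. In tumors they ran from -0.26 to -0.18 for *Nfia*, from -0.23 to -0.06 for *Nfib*, from 0.03 to 0.16 for *Nfic* and from -0.09 to 0.15 for *Nfix*. Between tumor and lung *Nfix* ran from -0.16 to 0.00. GC offsets gave -0.05 for *Nfib* and 0.03 for *Nfic* in WT lungs, -0.01 for *Nfix* in tumors, and -0.94 for *Nfib*, under the fold limit, and 0.05 for *Nfix* between tumor and lung. At FDR 0.25 and 1.5-fold *Nfic*, at 0.63, was past the limits between tumor and lung, as were 54.9% of all genes. The *Nfix* difference between the responses moved from 0.86 to 0.69 with GC offsets.

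For log2(FPKM + 1) in WT lungs, *Nfia* passed 0.05 at -0.31 without *Rn7s1*, *Rn7s2* and *Rn7sk* (exact permutation p = 0.0476), and ran from -0.34 to -0.19 with a sample left out, the former without 14-day replicate 5. *Nfic* became -0.01 without those 3 genes and -0.09 as CPM, and ran from -0.12 to 0.13. *Nfib* became 0.00 as CPM. In tumors *Nfix* became 0.01 and 0.03 in the same settings and ran from -0.11 to 0.08, and *Nfib* ran from -0.23 to -0.10, the former without KO host replicate 2 (exact permutation p = 0.0476). Effective length differences ran from -388 to 50 bases for *Nfic* and from -17 to 99 for *Nfix* in WT lungs, from 394 to 767 for *Nfia* and from -72 to 235 for *Nfix* in tumors, and from -254 to 163 for *Nfic* between tumor and lung. The *Nfia* difference in tumors passed 0.05 in the exact permutation test without WT host replicate 2 (763 bases) or KO host replicate 3 (767 bases).

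Counts of all genes past the limits, the background of the members, moved more. In WT lungs 92 genes became 0 at FDR 0.05 and 2-fold, 58 without a filter, 22 in DESeq2, 50 with GC offsets and 11 to 176 with a sample left out. In KO lungs 42 became 0 at the stricter limits, 20 with GC offsets and 2 to 60. Between 14-day lungs 34 became 2, 7 in DESeq2, 18 with the compared groups alone and 22 to 52. Between control lungs 37 became 1, 7 without a filter, 20 in DESeq2, 4 with GC offsets, 246 with the compared groups alone and 2 to 76. For the difference of the responses 8 became 1 at the stricter limit, 195 in DESeq2, 1 with GC offsets and 1 to 127. In tumors 146 became 532 at the looser limits and 113 to 186 with a sample left out. Between tumor and lung 5618 became 8533 without a filter and 3136 with at least 10 counts in every sample. With GC offsets the split into higher and lower genes went from 34 and 8 to 14 and 6 in KO lungs, from 14 and 23 to 1 and 3 between control lungs, and from 2344 and 3274 to 3112 and 2813 between tumor and lung.

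Same-numbered samples deviated together weakly at most. The correlation of their deviations ran from -0.28 to 0.23, and at most 2 of 6 pairs in a comparison were over 0.1, so the fits without pairing were kept. Whether a lung and a tumor with the same number came from 1 mouse is not given. At most 2 samples in a comparison correlated best with their own number. A replicate block gave 152, 129, 31, 30, 1, 130 and 5624 genes in the 7 comparisons in the order above. In WT and KO lungs this was more than the 92 and 42 genes without it. The split in WT lungs went from 53 higher and 39 lower to 61 and 91. What the replicate numbers stand for is not given. Between tumor and lung the block gave -0.35 for *Nfia*, -1.23 for *Nfib*, 0.63 for *Nfic* and -0.08 for *Nfix*. In WT lungs it gave 0.00 for *Nfib*, 0.02 for *Nfic* and -0.27 for *Nfix*. With block and GC offsets together, 89 genes passed in KO lungs, 5 between control lungs and 1 for the difference of the responses. That fit gave -0.04 for *Nfib* and 0.10 for *Nfic* in WT lungs, -0.02 for *Nfix* in tumors, and -0.94 for *Nfib* and 0.03 for *Nfix* between tumor and lung.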
